A study of Mus musculus with 6 samples.

Results

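A group of 9 genes of unlike function was lower in early mouse mesoderm that expressed Gli3R: the galanin gene Gal, the parathyroid hormone receptor gene Pth1r, the steroid enzyme gene Hsd11b2, the carboxypeptidase gene Cpm, the small GTPase gene Arl4a, the lipid-binding protein gene Fabp7, the transcriptional cofactor gene Cited1, the aminotransferase gene Bcat1 and the PDZ-LIM protein gene Pdlim4. They are 9 of 24975 genes in the counted table, and each symbol matched 1 row. They were picked from genes with a Benjamini-Hochberg adjusted p under 0.05 for lower counts with Gli3R in the edgeR quasi-likelihood test, fitted once without and once with litter as a term. The 2 fits called 20 such genes between them, and the others are developmental signalling, patterning and adhesion genes, a cyclin gene and the spermine synthase pair. The difference between the genotypes therefore chose these genes. It is given for them as a description, without a test.

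RNA was sequenced from mesoderm cells of mouse embryos at embryonic day 7.5, when the germ layers form, with 1000 sorted cells per library. Control cells came from Mesp1-Cre/+;R26-tdTomato/+ embryos, in which Cre made by the Mesp1 gene of nascent mesoderm switches on a red reporter, and were sorted on tdTomato. For the Gli3R group the genotype was Mesp1-Cre/+;R26-Gli3R-IRES-Venus/+, in which the same Cre switches on Gli3R with the reporter Venus, and cells were sorted on Venus. Both groups carried Mesp1-Cre on 1 allele and a transgene at R26 on 1 allele, and each library pooled littermates. There were 3 litters, with 1 control and 1 Gli3R library from each. Transgene, reporter and sorting colour change together, so an effect of Gli3R cannot be told apart from one of the reporter or the gate.

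Hedgehog ligands act through the receptor Ptch1 and the membrane protein Smo on the Gli transcription factors. Without ligand, Gli3 is cut into a shortened form that keeps target genes off, and Gli3R is that form. In the gastrula, Hedgehog ligand comes from the node and visceral endoderm, and nearby mesoderm cells can respond to it. Of the 9 genes, Cited1, also called Msg1, is known from nascent mesoderm and the early heart field. Pth1r is linked to Hedgehog in growing cartilage, where Indian hedgehog induces the ligand of its receptor, and is a marker of parietal endoderm. Gal is known from neurons and endocrine cells and is also transcribed in mouse embryonic stem cells, Fabp7 is a marker of radial glia and a Notch target there, and Bcat1 is a known target of Myc. Hsd11b2 is best known from kidney and placenta. No link of Cpm, Arl4a or Pdlim4 to Hedgehog, streak or mesoderm is stated here.

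Sequence upstream of the genes is shown because Gli factors bind DNA at a known motif, GACCACCCA, which reads TGGGTGGTC on the other strand. RefSeq's promoter table for GRCm38.p6 held 14 start sites of 8 of the genes, all but Hsd11b2, and the 250 bases before each start were searched on both strands. None of the 14 held the exact motif, which stood in 0.225% of 32851 promoters of the same length. With up to 1 mismatch it was found in 2 of the 14, the promoter of Gal and 1 of the promoters of Arl4a, against 5.79% of all promoters. The Gal promoter held 2 such matches, while 0.256% of all promoters held 2 or more. The matched promoters of Gal and Arl4a were 62.4% and 73.2% G or C, beside a median of 52.4% over all promoters. The shares over all promoters are therefore not from promoters of like composition. Capitals mark the matches, all on the strand opposite to the gene, and the sequences end 1 base before the start site.
Gal, GRCm38.p6 chr19:3414545-3414794, minus strand: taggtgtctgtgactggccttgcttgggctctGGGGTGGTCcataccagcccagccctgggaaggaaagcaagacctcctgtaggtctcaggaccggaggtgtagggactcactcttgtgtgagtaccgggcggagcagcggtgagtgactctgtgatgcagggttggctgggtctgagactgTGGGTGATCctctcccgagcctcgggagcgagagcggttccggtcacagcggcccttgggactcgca
Arl4a, GRCm38.p6 chr12:40037377-40037626, minus strand: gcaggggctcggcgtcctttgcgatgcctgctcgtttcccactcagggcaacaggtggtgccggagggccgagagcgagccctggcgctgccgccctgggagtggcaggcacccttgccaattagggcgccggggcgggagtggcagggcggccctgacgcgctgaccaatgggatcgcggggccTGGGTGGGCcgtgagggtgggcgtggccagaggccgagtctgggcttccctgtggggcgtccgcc
The matches in the Gal promoter begin 218 and 67 bases before the start, and the match in the Arl4a promoter begins 65 bases before it. These are matches of letters only, and binding of any Gli protein there was not measured.

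Library totals ran from 5481190 to 12635151 counts, so that 1 count stood for 0.0791 to 0.182 CPM, the unit of counts scaled to a common library size. Levels below are CPM after TMM scaling, a trimmed mean of log ratios between libraries. The labels' genotype was read in 2 genes. Gli3, part of which the transgene carries, ran from 25.8 to 34.4 CPM in the control group and from 39.0 to 50.9 CPM in the Gli3R group. The Hedgehog receptor and target gene Ptch1 ran from 2.04 to 3.66 and from 0.621 to 1.03 CPM. Neither gene passed the edgeR quasi-likelihood test. The adjusted p of Gli3 was 0.31 without and 0.13 with the litter term, and that of Ptch1 was 0.17 and 0.12. Mesoderm markers were expressed: 10 of 10 listed mesoderm genes had enough reads to be tested. Their summed level was 490 to 578 CPM with the control and 547 to 646 CPM with the Gli3R genotype. Vim and Hand1 weighed most in this sum, at 189 to 301 and 118 to 207 CPM over all libraries, while Tbx6 ran from 1.38 to 14.1 CPM. Genes listed as markers of other tissues had reads too. Over all 6 libraries, 11 epiblast genes summed to between 141 and 267 CPM, 8 parietal endoderm genes to between 97.4 and 135 CPM and 12 visceral endoderm genes to between 12.99 and 52.7 CPM. Single genes weighed unequally: in the epiblast list Dnmt3b ran from 92.3 to 135 CPM, Pou5f1 from 10.9 to 42.5 and Sox2 from 0 to 0.928. In the parietal endoderm list Lamb1 ran from 23.6 to 35.6 CPM and Thbd from 0.186 to 2.15. The sums alone therefore do not show that cells of these tissues were present. The neural gene Sox1, the extraembryonic ectoderm gene Elf5 and the node gene Foxj1 were at 0 in every library. A lower level in sorted pools cannot separate fewer cells that express a gene from less RNA per cell.

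All 9 genes passed the filter on low counts, and all 9 were lower in the Gli3R library of each litter, with every Gli3R library below every control library. Of all 11913 tested genes, 6.33% had groups apart in this direction, and 15.3% were lower in all 3 litters. Calls for lower counts made up 0.109% of tested genes without the litter term and 0.151% with it, and calls for higher counts 0.0252% and 0.0755%. The choice of the genes fixed these features, so nothing is read from them. The median log2 fold change of the 9 was -1.26, beside -0.00787 over all tested genes. The sizes below are likewise those of selected genes.

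**Figure D1:**
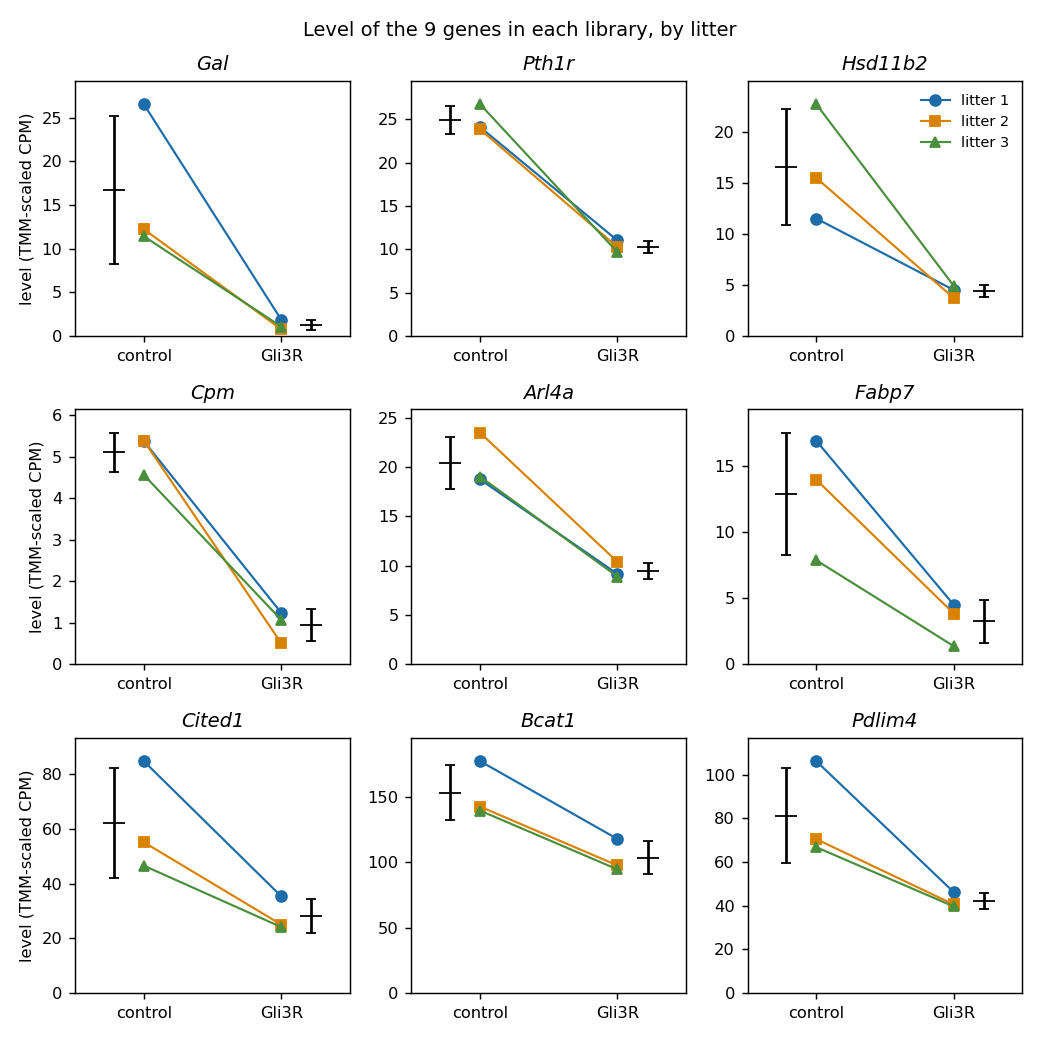
Level of each gene (TMM-scaled CPM, linear axis from 0) in the 3 control and 3 Gli3R libraries, with lines joining libraries of 1 litter and black bars for the mean ± SD of 3 libraries. In the Gli3R libraries Gal lies between 0.769 and 1.86 CPM and Bcat1 between 94.5 and 118 CPM.

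The peptide gene came first in size. Gal encodes the precursor of galanin, a secreted neuropeptide that signals through G protein-coupled receptors. Control libraries of litters 1, 2 and 3 held 26.5, 12.2 and 11.4 CPM, and Gli3R libraries 1.86, 0.769 and 1.07 CPM. The control library of litter 1 was well above the others, and each Gli3R library was far under each control library. Behind these values lay 360 control reads and 37 Gli3R reads, of which litters 2 and 3 gave 6 and 7. Its log2 fold change was -3.63 ± 0.43 (SE), the lowest of all 11913 tested genes in this fit. Within litters, Gli3R libraries held 7.03%, 6.29% and 9.41% of the control level.

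Pth1r, the receptor for parathyroid hormone and parathyroid hormone-related protein, had the steadiest levels. The control libraries of litters 1, 2 and 3 stood at 24.1, 23.9 and 26.8 CPM and the Gli3R libraries at 11.03, 10.3 and 9.67 CPM. Within each genotype the highest library was 1.12-fold and 1.14-fold above the lowest, against a gap of 2.16-fold between the lowest control and the highest Gli3R library. On the log2 scale the difference was -1.26 ± 0.14 (SE), with 45.7%, 43.0% and 36.1% of the control level left in litters 1, 2 and 3.

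Hsd11b2 encodes the enzyme that turns active glucocorticoid into its inactive 11-keto form. Its control libraries stood at 11.5, 15.5 and 22.7 CPM in litters 1, 2 and 3 and its Gli3R libraries at 4.50, 3.72 and 4.91 CPM. Control levels differed 1.97-fold between litters, while Gli3R levels differed 1.32-fold. For Hsd11b2 the log2 fold change was -1.93 ± 0.27 (SE). The share left was uneven, at 39.2% in litter 1 against 24.0% and 21.6% in litters 2 and 3.

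Cpm encodes carboxypeptidase M, a membrane-anchored enzyme that trims arginine or lysine from the ends of peptides. It was the gene with the fewest reads, 121 in control and 27 in Gli3R libraries. Its levels were 5.38, 5.39 and 4.57 CPM in the control libraries and 1.24, 0.513 and 1.07 CPM in the Gli3R libraries of litters 1, 2 and 3. The lowest of these rested on 4 reads, with an exact Poisson 95% interval of 0.140 to 1.31 CPM that covers counting error only and takes in both other Gli3R libraries. A log2 fold change of -2.37 ± 0.34 (SE) was fitted. The share left ran from 9.52% in litter 2 to 23.5% in litter 3, a range the counting error of litter 2 can span.

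Arl4a, an Arf-like small GTPase of the plasma membrane that recruits cytohesins, exchange factors of Arf6, had 18.7, 23.5 and 19.03 CPM in the control and 9.16, 10.4 and 8.90 CPM in the Gli3R libraries of litters 1, 2 and 3. Litter 2 was the highest in both genotypes. The log2 fold change was -1.11 ± 0.16 (SE), and the share left was even, at 48.9%, 44.2% and 46.8%.

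Fabp7, a fatty acid binding protein, had 16.9, 13.9 and 7.86 CPM in the control and 4.50, 3.84 and 1.38 CPM in the Gli3R libraries of litters 1, 2 and 3. Litter 3 was the lowest in both genotypes. The Gli3R library of that litter rested on 9 reads, with an exact Poisson 95% interval of 0.631 to 2.62 CPM, against 2.59 to 5.49 CPM for the 30 reads of litter 2. The fitted log2 fold change was -1.91 ± 0.39 (SE), with 26.7%, 27.6% and 17.6% of the control level left.

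Cited1 binds the coactivators CBP and p300 and does not bind DNA by itself. Control libraries of litters 1, 2 and 3 held it at 84.8, 55.1 and 46.5 CPM, and Gli3R libraries at 35.3, 24.99 and 24.1 CPM. Litter 1 was the highest in both genotypes. Cited1 had a log2 fold change of -1.12 ± 0.23 (SE), and 41.7%, 45.3% and 51.8% of the control level were left. Cited1 lies on the X chromosome, and genes that mark the sex of cells had different levels in the 2 groups. Xist, the RNA of the inactive X chromosome of female cells, ran from 41.0 to 44.0 CPM with the control genotype and from 22.8 to 29.9 CPM with Gli3R, and the Y-linked gene Eif2s3y from 29.4 to 32.3 and from 37.7 to 45.9 CPM. The edgeR quasi-likelihood test without the litter term gave Xist an adjusted p of 0.113 and Eif2s3y one of 0.292, above the threshold. With the litter term, the fit in which Cited1 was called, Xist had 0.0715 in the same test. Xist and Eif2s3y were added after their values were seen, and their part in the level of Cited1 was not tested.

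Bcat1, the cytosolic enzyme that takes the amino group from leucine, isoleucine and valine, was the most abundant of the 9 by CPM and had the smallest difference. Its control libraries stood at 177, 143 and 140 CPM in litters 1, 2 and 3 and its Gli3R libraries at 118, 97.5 and 94.5 CPM. The lowest control library was only 1.18-fold above the highest Gli3R library. Within litters the share left was close to constant, at 66.4%, 68.4% and 67.7%, and the log2 ratios spanned 0.043, the narrowest span of the 9. Bcat1 had a log2 fold change of -0.56 ± 0.12 (SE).

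Pdlim4, which joins a PDZ and a LIM domain and binds alpha-actinin on actin fibres, had 106, 70.4 and 66.7 CPM in the control and 46.1, 40.5 and 39.6 CPM in the Gli3R libraries of litters 1, 2 and 3. Its control level was again highest in litter 1. For Pdlim4 the log2 fold change was -0.93 ± 0.17 (SE), with 43.5% left in litter 1 and 57.5% and 59.3% in litters 2 and 3.

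**Figure D2:**
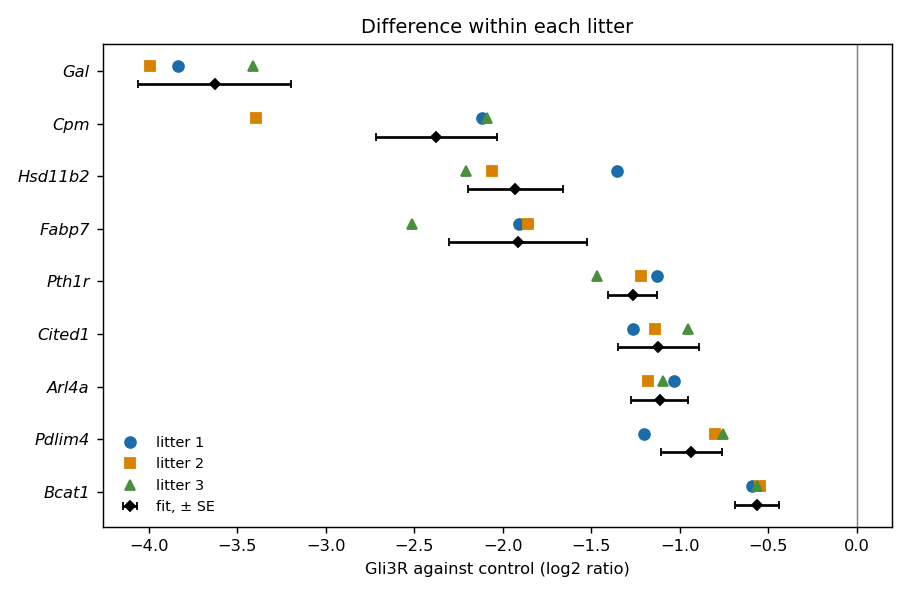
Log2 ratio of Gli3R to control within each litter (coloured points) and the fitted log2 fold change ± SE over all 6 libraries (black diamonds), ordered by size. Bcat1 and Arl4a have narrow spans over litters (0.043 and 0.145), and Cpm has the widest (1.31).

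Per length, the order of the genes was different from their order by CPM. Divided by the exon length of the GENCODE M21 models, control means ran from 0.857 CPM per kilobase for Cpm through 2.65 for Arl4a, 8.52 for Pth1r, 9.01 for Hsd11b2, 10.3 for Fabp7, 16.4 for Bcat1, 21.2 for Gal and 31.7 for Pdlim4 to 35.4 for Cited1. Neighbours in this order differed by less than the larger of their SDs over control libraries, except Cpm and Arl4a, Arl4a and Pth1r, and Fabp7 and Bcat1. In Gli3R libraries Gal stood at 1.57 CPM per kilobase, under all of the others except Arl4a at 1.23 and Cpm at 0.158. The deposited table's own gene models were not used here for length.

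Adjusted p-values at the edge of the choice are given as a description. Without the litter term, Cpm and Arl4a were the last genes inside at an adjusted p of 0.0394, and Ripply2 and Gdf1 the first outside at 0.0506 (edgeR quasi-likelihood test). With it, Bcat1 was inside at 0.0375 and Fgf15 the last, at 0.0425, while Msgn1 and Hesx1 were outside at 0.0502. Gal, Pth1r, Hsd11b2 and Arl4a were inside in both fits, Cpm only without the litter term (0.0555 with it), and Fabp7, Cited1, Bcat1 and Pdlim4 only with it (0.113 to 0.191 without).

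**Figure D3:**
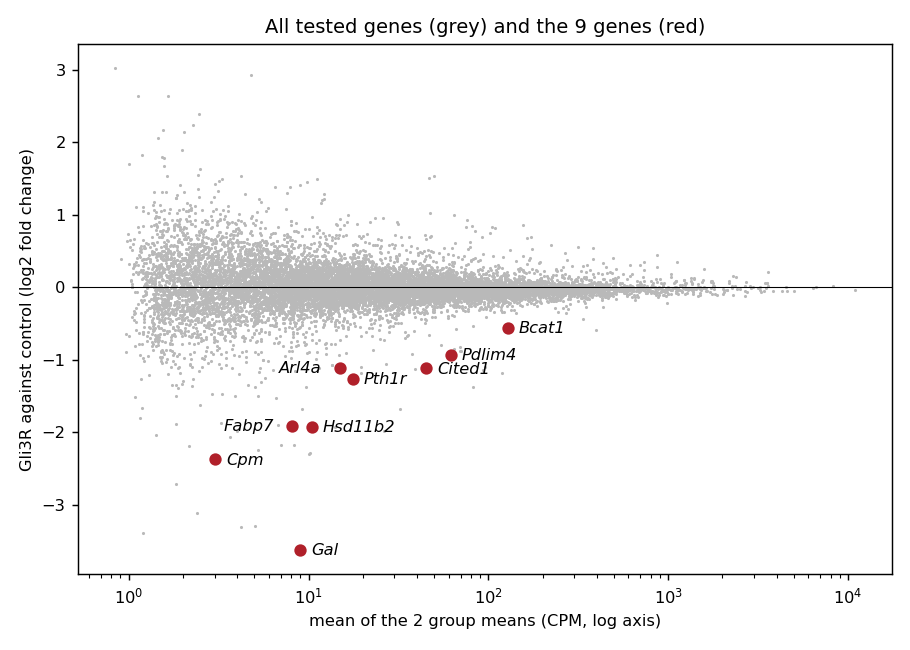
Log2 fold change of all 11913 tested genes against the mean of the 2 group means (CPM, log axis), with the 9 genes in red. Gal has the lowest value of all genes at -3.63, and Bcat1, the most abundant of the 9, has the smallest difference of them at -0.56. The 9 were chosen by adjusted p, so no relation between level and difference is read from them.

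Libraries of 1 genotype also differed, and the genes fell into different patterns there. Gal, Fabp7, Cited1, Bcat1 and Pdlim4 were highest in litter 1 in both genotypes, as were 15.0% of all tested genes. The other 4 were not: Hsd11b2 was highest in litter 3 in both, Arl4a in litter 2 in both, and the highest litter of Pth1r and Cpm differed between the genotypes. For Fabp7, Cited1, Bcat1 and Pdlim4 the choice favours such a shared litter pattern, since the litter term is what brought them inside the threshold. For Gal it does not follow from the choice, as Gal was inside without that term.

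The summed levels of several marker lists were also highest in litter 1 in both genotypes, though not every gene in them was. The 15 streak genes, of which Cdx1, T and Mesp1 had the highest control means, summed to 189, 94.4 and 66.5 CPM in control litters 1, 2 and 3 and to 75.2, 46.7 and 44.5 CPM in their Gli3R counterparts, with none at 0 in all libraries. The 11 epiblast genes summed to 267, 175 and 149 CPM there and to 155, 141 and 148 CPM in the Gli3R group, none of them at 0, and the Gli3R values were close together. The 11 paraxial mesoderm genes summed to 357, 296 and 240 CPM in the control group and to 194, 96.9 and 110 CPM in the Gli3R group. The 8 extraembryonic mesoderm genes were the other way round, between 446 and 597 CPM and between 620 and 875 CPM. Of these 4 lists, Dll3 of the paraxial list passed (lower) without the litter term. With litter as a block, T and Cdx1 of the streak list, Cdh1 of the epiblast list and Dll3 passed lower, at adjusted p of 0.0373, 0.0327, 0.0327 and 0.0216 in the edgeR quasi-likelihood test. Bmp4 and Msx1 of the extraembryonic mesoderm list passed higher in that fit, at 0.0425 and 0.0121. The part of these cell types in the levels of the 9 genes was not tested. Without the control library of litter 1, the log2 fold changes of Gal, Fabp7, Cited1, Bcat1 and Pdlim4 were -3.15, -1.69, -0.84, -0.44 and -0.70. The log2 fold change of Hsd11b2 was then -2.11.

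Other lists bear on single genes. Parietal endoderm, where Pth1r is a known marker, was measured by 8 genes that summed to 97.4 to 133 CPM in the control group and 128 to 135 CPM in the Gli3R group, and its defining gene Thbd was at 0.186 to 0.254 and 0.256 to 2.15 CPM. The part of this tissue in the level of Pth1r was not tested. Neural ectoderm, where Fabp7 is known later on, was measured by 8 genes that summed to 2.66 to 7.61 CPM in the control group and 1.15 to 2.25 CPM in the Gli3R group, also highest in litter 1 in both. Hesx1 had the highest control mean of the list, with 5.01, 3.08 and 1.65 CPM in control litters 1, 2 and 3 and 0.621, 0.513 and 0.153 CPM with Gli3R. Every Gli3R value of Hesx1 was below every control value, with an adjusted p of 0.169 by the edgeR quasi-likelihood test and 0.0502 with litter as a block. Sox1 was at 0, and Pax6 was at 0 to 0.127 and 0 to 0.544 CPM. The part of neural cells in the level of Fabp7 was not tested.

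**Figure D4:**
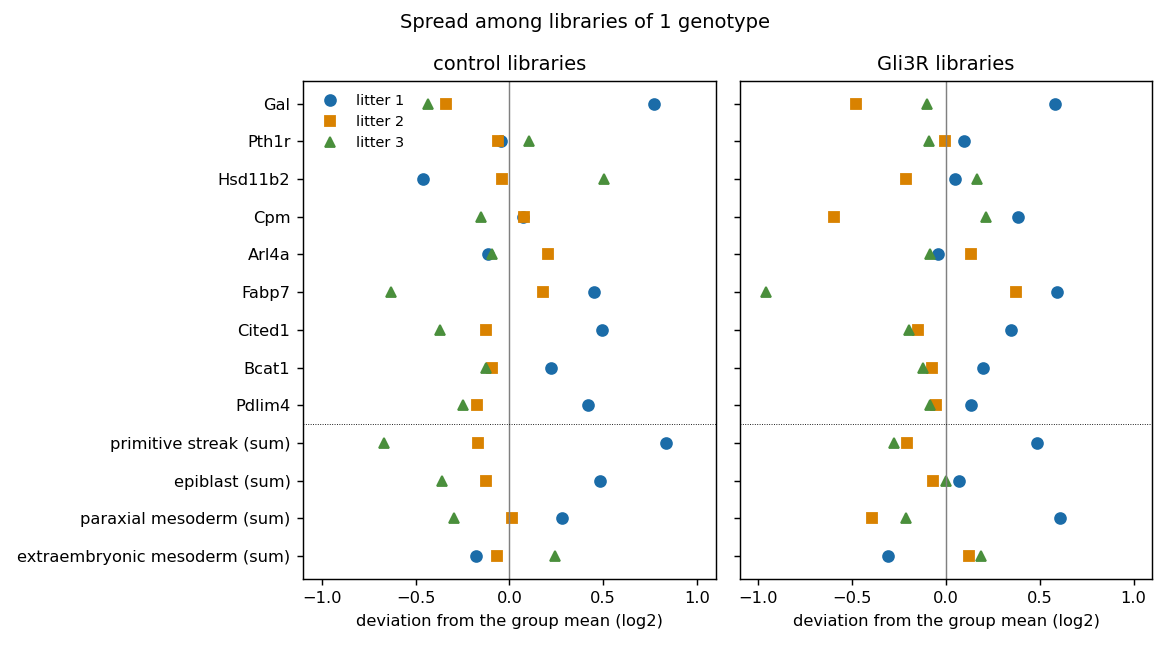
Deviation of each library from the mean of its genotype (log2), for the 9 genes (above the dotted line) and for the summed level of 4 marker lists (below it). A prior count of 2, scaled to library size, was added before the logarithm for the 9 genes but not for the sums. In control libraries the primitive streak sum is 0.836 above its mean in litter 1, where Gal is 0.768 above its own.

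The genes whose profile over the 6 libraries was closest to each of the 9 were found by the root mean square difference of mean-centred log2 CPM. A prior count of 2, scaled to library size, was added before the logarithm. It narrows the differences of genes with few reads, so distances to such genes depend on it. Closest to Gal were Cdh1, the E-cadherin gene, at 0.559 and the homeobox gene Hesx1 at 0.721, both more than 0.5 away. Hesx1 was also closest to Fabp7 at 0.258, with Kcne3 at 0.288. Foxf2, a forkhead gene of the mesoderm, was closest to Pth1r at 0.0948, followed by Sms at 0.122. Rab37 was closest to both Cpm (0.303) and Hsd11b2 (0.332). Arl4a lay closest to Car8 (0.0689) and to Gdf1 (0.151), whose counts were identical to those of Cers1, which shares its locus. Pdlim4 lay closest to Rasgrp2 (0.0755) and Lmo2 (0.0805), Cited1 to Fam101a (0.122) and Rasgrp2 (0.131), and Bcat1 to Cyfip2 (0.0421) and Fam64a (0.0538). These distances describe the 6 libraries and carry the genotype difference that chose the genes.

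The receptors, ligands, relatives and partner enzymes of the 9 genes were then tested. Of 127 listed genes, 77 were expressed enough, and 0 of them passed the edgeR quasi-likelihood test, the smallest adjusted p being 0.160. At an unadjusted p under 0.05 there were 9, beside 816 of all 11913 genes. DESeq2 called 3 of the 77 at an adjusted p under 0.05, Penk and Sgk1 lower and Pdlim3 higher. Over all 11913 tested genes it called 51 lower and 43 higher. The median log2 fold change of the 77 was -0.00325, beside -0.00787 over all tested genes, and 39 were negative. Calls of the edgeR test in either direction made up 0.134% of all tested genes. Groups apart were seen in 3 of the 77 downwards and 7 upwards, beside 6.33% and 5.62% of all tested genes.

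Receptor genes for galanin were at or near 0. Galr1, Galr3 and the related peptide gene Galp had 0 reads in every library, where 3 reads, the limit that a count of 0 allows, would be 0.237 to 0.547 CPM, and Galr2 had 3 reads in control and 0 in Gli3R libraries. Of the 17 genes for galanin receptors, peptide processing and other neuropeptides, 4 were tested and 0 passed. Penk, which encodes the opioid peptide precursor proenkephalin, had 6.12, 13.7 and 9.51 CPM in control litters 1, 2 and 3 and 3.03, 3.46 and 3.99 CPM with Gli3R. Every Gli3R library was below every control library, and the log2 fold change was -1.53 ± 0.30 (SE; adjusted p = 0.160 by the edgeR quasi-likelihood test). Without the control library of litter 1 it passed (adjusted p = 0.0348 in the same test), and so it did without the low-count filter (0.00666) and in DESeq2 (0.00401). Cpe, which trims peptide precursors, had -0.25 ± 0.22 (SE). Chgb, a secretory granule gene under the filter, had 2 reads in control and 32 in Gli3R libraries and was added after its values were seen.

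Ligands of Pth1r were near the limit of detection. Pthlh had 5 reads in each group and Pth had 0, as had Pth2, the ligand gene of the related receptor Pth2r, while the G protein gene Gnas, through which the receptor raises cyclic AMP, stood at 403 ± 21.5 and 457 ± 43.8 CPM (SD, n = 3 each). Of 13 genes in this list, 7 were tested and 0 passed. The 2 with the smallest p were the kinase subunit gene Prkaca, with a log2 fold change of 0.38 ± 0.14 (SE), and Ramp2, an accessory protein of peptide hormone receptors, with -0.48 ± 0.20 (SE).

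Around Hsd11b2, the enzyme of the reverse direction, Hsd11b1, had 2 reads in control and 0 in Gli3R libraries. The glucocorticoid receptor gene Nr3c1 had 29 and 34 reads, and the mineralocorticoid receptor gene Nr3c2 had 3 in each. Of 14 genes for glucocorticoid metabolism and response, 7 were tested and 0 passed. Sgk1, a kinase gene induced by these hormones among other signals, had 37.7, 48.4 and 39.3 CPM in control litters 1, 2 and 3 and 28.8, 25.4 and 27.9 CPM with Gli3R. Its groups did not overlap. The log2 fold change of Sgk1 was -0.61 ± 0.13 (SE), with an adjusted p of 0.191 by the edgeR quasi-likelihood test and 0.0374 by DESeq2. The response gene Tsc22d3 stood at 49.4 ± 7.09 and 42.5 ± 2.79 CPM (SD, n = 3 each).

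Of 15 genes for other carboxypeptidases and kinin receptors, 7 were tested, with a median log2 fold change of 0.21, and 0 passed. Cpa1 had 0.81 ± 0.46 (SE) and Cpxm1 -0.32 ± 0.19 (SE). The kinin receptor genes Bdkrb1 and Bdkrb2, whose kinin ligands are substrates or products of carboxypeptidase M, had 0 and 1 reads. In the Arl4 and cytohesin list 12 of 13 genes were tested and 0 passed. The sister gene Arl4c had 6.31, 6.06 and 8.37 CPM in control litters and 10.6, 8.33 and 15.3 CPM with Gli3R, overlapping between groups, with a log2 fold change of 0.71 ± 0.26 (SE). Arl4d stood at 15.3 ± 4.13 and 16.4 ± 2.12 CPM (SD, n = 3 each), so neither relative had a lower mean with Gli3R.

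Among fatty acid and retinoid binding proteins, 5 of 13 were tested and 0 passed. Fabp5, the abundant epidermal form, stood at 294 ± 24.6 and 281 ± 20.2 CPM, and Crabp2, which binds retinoic acid, at 56.8 ± 10.3 and 72.2 ± 3.17 CPM (SD, n = 3 each). In the Cited list 6 of 10 were tested and 0 passed. Cited2, a relative of Cited1 needed for heart development, stood at 88.0 ± 18.5 and 99.2 ± 12.7 CPM (SD, n = 3 each), and log2 fold changes of the tested genes ran from -0.04 to 0.27. Their coactivator genes Ep300 and Crebbp had -0.03 ± 0.20 and -0.02 ± 0.17 (SE).

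All 20 genes of branched-chain amino acid metabolism were tested, and 0 passed. Bcat2, the mitochondrial form of the enzyme, averaged 29.0 ± 2.86 and 33.5 ± 2.31 CPM in the control and Gli3R groups (SD, n = 3 each), each Gli3R library above each control library. Slc3a2, a subunit of the transporter that brings these amino acids in, had 142, 143 and 155 CPM in control litters and 120, 117 and 119 CPM with Gli3R. All of the Gli3R values were lower, with a log2 fold change of -0.31 ± 0.08 (SE; adjusted p = 0.292 by the edgeR quasi-likelihood test).

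Relatives of Pdlim4 had values on both sides of 0. Of 13 PDZ-LIM, alpha-actinin and related genes, 10 were tested and 0 passed. Pdlim3, known from muscle, had 2.97, 4.23 and 5.58 CPM in control litters 1, 2 and 3 and 7.92, 13.97 and 12.4 CPM with Gli3R, every Gli3R library above every control library. Its log2 fold change was 1.38 ± 0.29 (SE), at an adjusted p of 0.188 by the edgeR quasi-likelihood test and 0.0502 with litter as a block. It passed without the low-count filter (0.00986) and in DESeq2 (0.00451). Pdlim7 had 0.47 ± 0.14 (SE), also with groups apart, while Pdlim1 (-0.10 ± 0.20, SE) and Pdlim5 (-0.22 ± 0.21, SE) overlapped. The difference between Pdlim4 and its relatives was not itself tested.

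**Figure D5:**
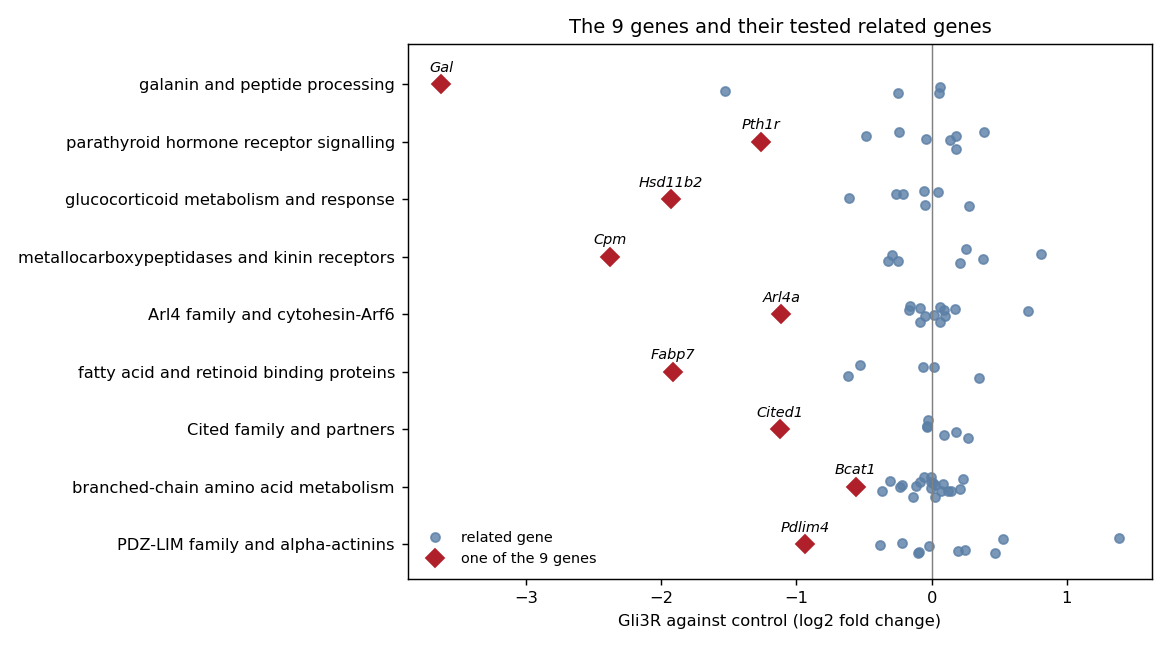
Log2 fold change of each of the 9 genes (red diamonds) and of the tested genes of its related list (blue points, spread vertically at random). Apart from Penk at -1.53 and Pdlim3 at 1.38, the related genes lie between -0.62 and 0.81.

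Counting could in part mix genes that overlap or repeat. In GRCm38 no RefSeq gene overlapped Gal, Hsd11b2, Arl4a, Fabp7, Cited1 or Pdlim4, and those that overlapped Pth1r, Cpm and Bcat1 are non-coding and have no row of their own in the table. Of all 50-base stretches of GENCODE M21 transcripts, Gal, Hsd11b2, Cpm, Fabp7, Cited1 and Pdlim4 shared 0 with another gene. Pth1r shared 1.68%, with Myl3, Arl4a 2.39% and Bcat1 2.55%, the last with the overlapping Gm26666.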

How the data were processed

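The authors deposited raw counts, 1 column per library with a row for each Entrez gene ID. In the submitters' processing notes the tools FastQC, TopHat2 2.0.14, Subread 1.4.6, edgeR and featureCounts and the build mm9 are listed; their roles, the annotation and the strand setting are not given there. Per the labels' protocols, cDNA came from a SMARTer Ultra Low kit and libraries from Nextera XT, so amplified copies may count as reads. The reference was of another build and served for names, promoters, lengths and overlaps; 96.7% of IDs matched it.

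Counts were analysed in R 4.3.3 with edgeR 4.0.16 (filterByExpr, minimum count 10; TMM; quasi-likelihood test, two-sided, Benjamini-Hochberg over 11913 genes, threshold 0.05; no litter term). The script was tested on simulated counts. Alternatives were DESeq2 1.42.0, other scalings and filters, single libraries left out and litter as a block. Replicate numbers mark litters per the labels; same-litter deviations correlated at 0.168, 0.187 and 0.0755, and those of different litters at -0.27 to 0.162. All pairs of libraries differed beyond sampling noise (chi-square per gene 4.12 to 15.2). P-values measure the spread between pools. The 9 genes and the related and marker lists were chosen with earlier results of these data known. Named from each related list were genes past the threshold, or else the 2 with the smallest p; further related genes were named for their role after their values were seen.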

Additional observations from a re-analysis of the deposited data

How the results depend on the processing

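The 9 genes kept negative log2 fold changes in every alternative that gave a value, with 116 values in all. Each was within 1 SD of the reported one, the SD being that of log2 CPM within genotypes. Cpm gave none under a filter of at least 5 CPM in 3 libraries. The choice of the genes, each with every Gli3R library below every control library, largely fixed these features, so nothing is read from them. The median of the genes with a value ran from -1.34 to -1.19, the latter over 8 genes under the filter that dropped Cpm. Without 1 library it ran from -1.33 to -1.22, and it was -1.34 without litter 1, an alternative chosen after seeing the data.

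Counts of related genes that passed went from 0 higher and 0 lower to 1 and 2 in DESeq2 and to 1 and 1 without the low-count filter. Without 1 library 0 to 1 were lower and 0 were higher; the 1 was Penk, without control replicate 1. With litter as a replicate block both counts stayed 0. Over all genes, 3 higher and 13 lower became 9 and 18 with the replicate block, 43 and 51 in DESeq2, 49 and 59 without the filter, 5 and 14 with library size alone, 1 and 12 with at least 5 CPM and 5 and 22 without litter 1. Without 1 library, 0 to 2 were higher and 0 to 16 lower: 0 and 0 without Gli3R replicate 3, where 659 had an unadjusted p under 0.05, 0 and 5 without Gli3R replicate 2, 0 and 6 without control replicate 2, 1 and 8 without Gli3R replicate 1, and 6 lower without control replicate 3. The cause was not tested. Without 1 library the log2 fold change of Cpe ran from -0.42 to 0.0285 (above 0 without control replicate 3) and that of Cited4 from -0.22 (without Gli3R replicate 1) to 0.64. Depth limits Cpm, Fabp7 and Gal in the Gli3R libraries, where single libraries held 4 to 9 reads.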
